A study of Mus musculus with 6 samples.

Results

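The genes described are 10 members of the HSP70 and HSP110 chaperone families (Hspa1a, Hspa1b, Hspa2, Hspa4, Hspa4l, Hspa8, Hspa9, Hspa12a, Hspa14 and Hsph1) out of 55421 gene IDs counted in mouse pancreatic islets. They were chosen by gene symbol through GENCODE M21, and each symbol matched 1 gene ID. Hspa1b, a stress-inducible copy of HSP70, had 0 counts in all 3 libraries given the ligand insB:9-23 and in 1 of 3 vehicle libraries, against 78201 and 63756 counts in the other 2 vehicle libraries. None of the other 9 members passed the test for a difference between the groups, which 14 of all 17016 genes tested (0.0823%) did. Counts of 9 of the 10 passed the filter on low counts and entered the test, and Hspa1b did not, because it had counts in 2 of 6 libraries.

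The islets came from wild-type (WT) mice of the strain C57BL/6, with 3 libraries of total RNA stimulated with insB:9-23, named for a peptide of the insulin B chain, and 3 given vehicle. Whether the animals or the isolated islets were treated is unclear from the labels. The sources used here do not state age, dose, duration or whether islets of several animals were pooled. Total counts lay between 52052808 and 58880189 per library. Markers of acinar cells, the exocrine cells around islets, took 16.4%, 14.6% and 22.0% of counts in insB:9-23 replicates 1 to 3 and 13.4%, 14.6% and 15.5% in vehicle replicates 1 to 3. The 10 beta cell markers, which include the insulin genes, took 11.8%, 13.7% and 9.47% in insB:9-23 replicates 1 to 3 and 13.6%, 12.0% and 11.8% in vehicle replicates 1 to 3. The libraries thus held islet RNA beside much exocrine RNA, and insB:9-23 replicate 3 held the largest acinar share.

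HSP70 proteins bind exposed hydrophobic stretches of unfolded proteins in a cycle driven by ATP. J-domain proteins deliver clients and speed ATP hydrolysis, and nucleotide exchange factors, among them the HSP110 proteins, release ADP so that the client can leave. Heat shock factor 1 induces the stress-responsive copies through heat shock elements, which are repeats of the letters GAA in alternating orientation. Beta cells, the main cells of mouse islets, fold large amounts of proinsulin.

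Hspa1a and Hspa1b are shown first because their counts differ most and their coding sequences hardly do. Both are single-exon genes on the minus strand of chromosome 17 (GRCm38, GENCODE M21). Hspa1a (ENSMUSG00000091971) spans chr17:34969190-34972156 and Hspa1b (ENSMUSG00000090877) spans chr17:34956436-34959238, with 12918 bases between the 2 start sites. The coding regions, of 1926 and 1929 bases with the stop codon, differed at 8 bases and by 1 gap of 3 bases, an identity of 99.4%. The 5′ untranslated parts, of 231 bases each, differed at 3 bases. The 3′ untranslated parts, of 810 bases in Hspa1a and 643 bases in Hspa1b, had an identity of 42.5% over their alignment. The ends of the coding regions with the stop codon are printed below from the GENCODE M21 transcripts, for Hspa1a at chr17:34970000-34970059 and for Hspa1b at chr17:34957079-34957141, 5′ to 3′ on the minus strand. Capitals mark bases that differ from, or are missing in, the other copy.
Hspa1a: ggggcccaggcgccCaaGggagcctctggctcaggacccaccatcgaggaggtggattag
Hspa1b: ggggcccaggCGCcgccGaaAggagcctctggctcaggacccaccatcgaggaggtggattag

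How far reads of the pair can be told apart was described by cutting each transcript into all its windows of 100 bases. Of the 2704 windows of Hspa1b, 1350 (49.9%) also occur in Hspa1a, and 1354 occur in Hspa1b alone when the 2 transcripts are compared. Of those 1354 windows, 692 start at base 2013 or later, near the end of the coding region and in the 3′ untranslated part. With windows of 50 bases 37.7% were Hspa1b's own, and with windows of 150 bases 59.5% were. The sources used here do not state the read length, and no other part of the genome was compared.

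**Figure D1:**
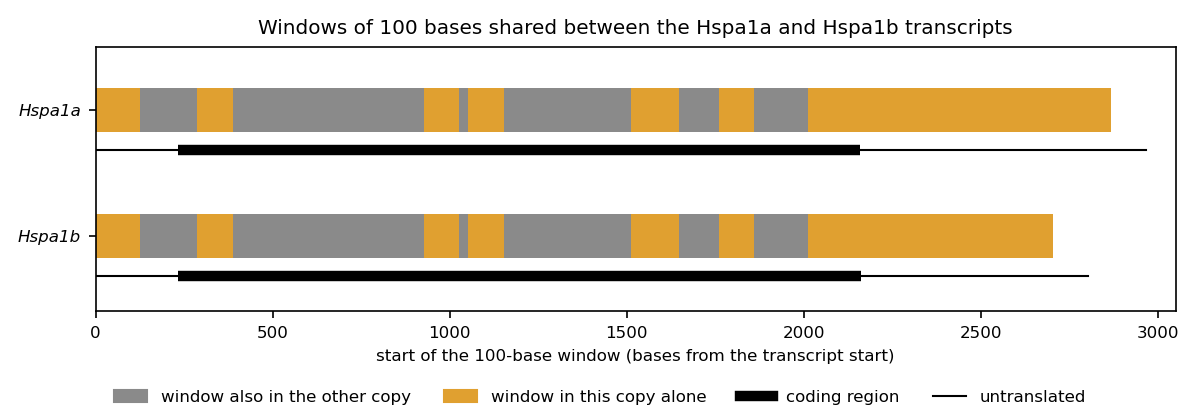
Windows of 100 bases along the Hspa1a (upper) and Hspa1b (lower) transcripts, in bases from the transcript start, with windows found in both copies in grey and windows found in that copy alone in orange. The black line is the transcript, thick over the coding region. Shared windows lie in the coding region and the end of the 5′ part, and from base 2013 on no window is shared.

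The upstream windows of the pair had an identity of 98.8%. Of 10 members, 8 had promoter windows in the RefSeq table (GRCm38.p6), 10 windows in all. The 250 bases upstream of the start differed at 3 bases between Hspa1a (chr17:34972157-34972406, minus strand) and Hspa1b (chr17:34959239-34959488, minus strand). They are shown beside the 250 bases upstream of a RefSeq start of Hsph1 (chr5:149636337-149636586, minus strand), the member with the smallest p. GENCODE M21 starts Hsph1 further upstream, at chr5:149636376, so the last printed bases of Hsph1, with the marked match, lie inside that gene. Each is printed 5′ to 3′, and capitals mark a match to GAANNTTC or TTCNNGAA, the minimal pairs of a heat shock element. Both motifs read the same on either strand.
Hspa1a: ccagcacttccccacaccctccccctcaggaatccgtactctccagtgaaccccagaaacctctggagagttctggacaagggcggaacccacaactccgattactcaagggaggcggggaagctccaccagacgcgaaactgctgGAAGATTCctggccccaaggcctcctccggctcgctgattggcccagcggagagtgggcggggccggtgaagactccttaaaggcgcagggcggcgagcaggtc
Hspa1b: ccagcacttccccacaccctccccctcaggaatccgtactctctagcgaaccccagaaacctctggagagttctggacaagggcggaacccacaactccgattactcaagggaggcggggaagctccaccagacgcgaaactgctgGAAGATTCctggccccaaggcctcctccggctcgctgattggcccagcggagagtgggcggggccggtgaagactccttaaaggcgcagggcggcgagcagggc
Hsph1: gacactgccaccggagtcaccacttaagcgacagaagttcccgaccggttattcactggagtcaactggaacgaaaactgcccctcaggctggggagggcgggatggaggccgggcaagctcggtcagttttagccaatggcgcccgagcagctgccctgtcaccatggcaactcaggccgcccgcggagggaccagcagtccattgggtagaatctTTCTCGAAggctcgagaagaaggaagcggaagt

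GAANNTTC occurred once upstream of Hspa1a and once upstream of Hspa1b, at the same place, and in 6.69% of all 32851 windows of the same length. TTCNNGAA occurred in both windows of Hsph1, which overlap, and in 7.17% of all windows. The windows of Hspa2, Hspa4, Hspa4l, Hspa12a and Hspa14 held neither. None of the member windows held a run of 3 alternating units (GAANNTTC followed by NNGAA, on either strand), which 0.466% of all windows did. A match of letters is a description and not a shown binding site.

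Hspa1a, the first stress-inducible copy, was abundant and even across the libraries. It stood at 1037, 1082 and 1025 CPM (counts scaled to the TMM-adjusted library size) in insB:9-23 replicates 1 to 3, and at 1022, 1114 and 984 CPM in vehicle replicates 1 to 3. The insB:9-23 libraries lay within the range of the vehicle libraries, with means of 1048 ± 30.2 CPM and 1040.1 ± 67.1 CPM (SD, n = 3 each). The log2 fold of insB:9-23 over vehicle was 0.01 ± 0.07 (SE; edgeR adjusted p = 0.99). In bulk tissue, fewer cells that carry a transcript and less of it per cell cannot be told apart.

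Hspa1b, the second stress-inducible copy, was all or none. It had 0 counts in each insB:9-23 library, and 0, 78201 and 63756 counts in vehicle replicates 1 to 3. The last 2 correspond to 1253 and 1195 CPM, while a count of 0 allows up to 0.0512, 0.0534 and 0.0655 CPM in insB:9-23 replicates 1 to 3 and up to 0.0475 CPM in vehicle replicate 1 (3 counts per library). These limits cover counting error only and bound what was counted, not how much transcript was present, since mt-Cytb, described below, was also at 0 or 1 in some libraries. Since vehicle replicate 1 is at 0 with the treated libraries, the groups overlap and no fold is given. Without a filter on low counts Hspa1b entered the test and did not pass it (edgeR adjusted p = 0.78). It also entered with each insB:9-23 library left out, and did not pass (edgeR adjusted p = 0.77 to 0.94). With vehicle replicate 1 left out it passed (edgeR adjusted p = 0.0076), so the call rests on that 1 library.

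Hspa1a showed no step between libraries with and without Hspa1b counts. Vehicle replicates 2 and 3, the libraries with Hspa1b counts, hold both the highest and the lowest Hspa1a level of the 6. Hspa1b had 1.12 and 1.21 counts per Hspa1a count in those libraries. The share of Hspa1a in the counts of the pair was 100% in each insB:9-23 library, with a Wilson 95% lower limit of at least 99.9918%. In vehicle replicates 1 to 3 it was 100%, 47.1% (46.8% to 47.3%) and 45.2% (44.9% to 45.4%). The intervals cover counting error only. The group means of the share, 100% and 64.1% ± 31.1 (SD, n = 3 each), differed by 35.9 percentage points. The exact two-sided permutation p was 0.4, where 3 against 3 without ties cannot go below 0.1. Because all other shares are tied at 100%, no split of these values gives a larger difference. The value of 0.4 is thus the smallest p possible here, and the test cannot decide whether the groups differ.

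Summed over the pair, the libraries fell at 2 levels. The sum was 1037, 1082 and 1025 CPM in insB:9-23 replicates 1 to 3, against 1022, 2367 and 2178 CPM in vehicle replicates 1 to 3. The sum had a log2 fold of -0.82 ± 0.31 (SE; edgeR unadjusted p = 0.041, adjusted p = 0.88). Without vehicle replicate 1 the log2 fold was -1.12 ± 0.09 (SE; edgeR adjusted p = 0.047), and it passed. The exact two-sided permutation test of the CPM sums gave p = 0.4.

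**Figure D2:**
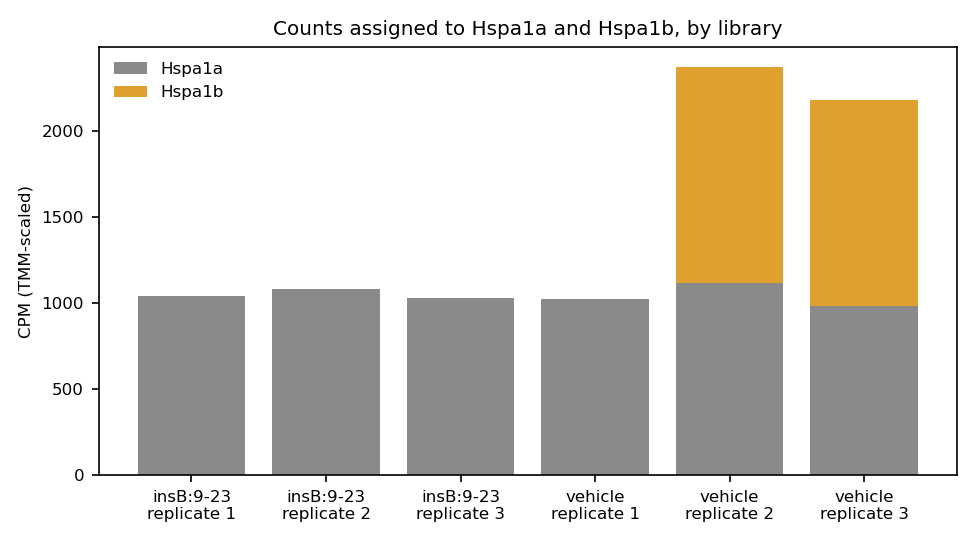
Stacked bars of the level assigned to Hspa1a (grey) and Hspa1b (orange) in each library, in CPM from 0. The grey part lies between 984 and 1114 CPM in all 6 libraries, and the orange part appears only in vehicle replicates 2 and 3.

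All-or-none counts were frequent among single-exon genes of these libraries. Of 123 protein-coding genes with 1 exon and at least 5 CPM in any library, 95 (77.2%) had 0 counts in another. Among those with several exons it was 57 of 10681 (0.534%). Exon number was the largest of any annotated transcript, so Hspa2, whose longest coding transcript has 1 exon, counts among those with several. Hspa1b ranked second by highest CPM among the 258 genes of any kind with such counts. The first was mt-Cytb, the mitochondrial gene for cytochrome b of the respiratory chain, named after its values were seen. It had 0, 219738 and 168978 counts in insB:9-23 replicates 1 to 3, and 1, 1 and 225968 counts in vehicle replicates 1 to 3. A count of 0 in these tables is therefore not read as absence of the transcript. Each library was at 0 for 107 to 132 of the 258 genes, so no single library stood out. Hspa1a, also of 1 exon, was counted in every library. The part of exon structure, and of the handling of reads that map to both copies, in the zeros of Hspa1b was not tested.

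Other genes had zeros in the same libraries as Hspa1b, and 10 genes shared the pattern of Hspa2 by the same rule. How many genes share a pattern in general was not counted. In all, 6 genes, each of 1 exon, were at 0 in the same 4 libraries and at 1 CPM or more in vehicle replicates 2 and 3. They were Hspa1b, the protein-coding genes Hps6 and Wdr5b and 3 non-coding genes. Over the 6 libraries, the genes whose log2(CPM + 0.5) ran most like the sum of the pair, out of 12596 with a name and a mean of at least 1 CPM, were Hps6 (Pearson's r = 0.999), Wdr5b (0.996), Vps37a (0.994), Rbmxl1 (0.986) and Hacd2 (0.986). These values describe 6 libraries that share scaling and source, and the 2 high libraries set them. Vps37a, a subunit of the ESCRT-I sorting complex with 12 exons, was counted in every library. It stood at 64.3, 68.2 and 59.99 CPM in insB:9-23 replicates 1 to 3, and at 55.8, 149.98 and 134.6 CPM in vehicle replicates 1 to 3. The libraries with Hspa1b counts were its 2 highest, which follows from its choice by likeness to the sum. Its other 4 libraries were not at 0.

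Hspa8, the constitutive cytosolic HSP70 that also uncoats clathrin vesicles, stood at 1034, 1169.7 and 990.0 CPM in insB:9-23 replicates 1 to 3, and at 869.8, 886 and 1002 CPM in vehicle replicates 1 to 3. Vehicle replicate 3 lay above insB:9-23 replicate 3, so the groups overlapped. The means were 1065 ± 93.6 CPM and 919 ± 72.2 CPM (SD, n = 3 each), with a log2 fold of 0.21 ± 0.09 (SE; edgeR unadjusted p = 0.067, adjusted p = 0.88). Leaving out each library in turn gave log2 folds of 0.14 to 0.28. Hspa8 (ENSMUSG00000015656) has 9 exons at chr9:40800984-40810087, on the plus strand.

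Hspa2, an HSP70 best known from male germ cells, was the second all-or-none member. It had 0, 1031 and 834 counts in insB:9-23 replicates 1 to 3, and 1363, 1227 and 0 counts in vehicle replicates 1 to 3. Where counted, it stood at 18.3 and 18.2 CPM in insB:9-23 libraries and at 21.6 and 19.7 CPM in vehicle libraries. The log2 fold of -0.18 ± 2.13 (SE; edgeR adjusted p = 0.99) has an error too wide to read a direction from. Hspa2 (ENSMUSG00000059970) lies at chr12:76404176-76406938 on the plus strand. Its longest coding transcript has 1 exon, and another transcript model has 2. A total of 10 genes were at 0 in the same 2 libraries and at 1 CPM or more in the other 4. In base composition, the longest coding transcripts of Hspa1a, Hspa1b and Hspa2 held 58.9%, 58.1% and 53.6% G and C, and those of the other 7 members held 39.5% to 51.2%.

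Hspa9, mortalin, the mitochondrial HSP70 that pulls precursor proteins into the matrix, stood at 176, 145 and 199 CPM in insB:9-23 replicates 1 to 3, and at 162, 188 and 199 CPM in vehicle replicates 1 to 3. Its groups overlapped, with a log2 fold of -0.08 ± 0.14 (SE; edgeR adjusted p = 0.95). With the summed acinar markers added to the fit it was -0.29 ± 0.10 (SE; edgeR unadjusted p = 0.031, adjusted p = 0.94). Hspa14, an atypical HSP70 of the ribosome-associated complex, stood at 23.4, 20.1 and 18.8 CPM in insB:9-23 replicates 1 to 3, and at 18.2, 19.6 and 21.2 CPM in vehicle replicates 1 to 3. The highest and the lowest of the 6 values were both from replicates numbered 1, and the log2 fold was 0.08 ± 0.12 (SE; edgeR adjusted p = 0.94). Hspa14 overlaps the gene Gm45902 on the same strand of chromosome 2, which held 84 to 182 counts, so the division of reads between them is uncertain. Hspa12a, a distant and atypical relative, stood at 52.5, 47.9 and 52.1 CPM in insB:9-23 replicates 1 to 3, and at 52.5, 57.3 and 54.2 CPM in vehicle replicates 1 to 3. Its log2 fold was -0.10 ± 0.07 (SE; edgeR adjusted p = 0.89), and insB:9-23 replicate 1 and vehicle replicate 1 were level. On GRCm38, Hspa9 (ENSMUSG00000024359) has 17 exons at chr18:34937414-34954357, Hspa14 (ENSMUSG00000109865) has 14 at chr2:3488850-3512814 and Hspa12a (ENSMUSG00000025092) has 12 at chr19:58795750-58943654, all on the minus strand.

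The HSP110 proteins act as exchange factors for HSP70. Hsph1, a stress-inducible HSP110 also called HSP105, stood at 172, 174 and 169 CPM in insB:9-23 replicates 1 to 3, and at 151, 159.6 and 136 CPM in vehicle replicates 1 to 3. On the TMM scale every insB:9-23 library lay above every vehicle library, as was the case in either direction for 13.5% of the 17016 genes tested. Relative to library totals alone, insB:9-23 replicate 3 lay below every vehicle library, so the separation depends on the scaling. The means were 172 ± 2.74 CPM and 149 ± 11.9 CPM (SD, n = 3 each), with a log2 fold of 0.20 ± 0.07 (SE; edgeR unadjusted p = 0.032, adjusted p = 0.88). The log2 fold lay between 0.14 and 0.26 with each library left out in turn, and it was 0.24 ± 0.09 (SE; edgeR adjusted p = 0.94) with the summed acinar markers added to the fit. With library totals alone as scaling it was 0.05 ± 0.16 (SE; edgeR adjusted p = 0.95), where the median over all genes was -0.15.

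Hspa4, a constitutive HSP110 known as APG-2, stood at 126, 113 and 114 CPM in insB:9-23 replicates 1 to 3, and at 127, 117 and 137 CPM in vehicle replicates 1 to 3. The groups overlapped, and the log2 fold was -0.11 ± 0.08 (SE; edgeR adjusted p = 0.90). Hspa4l, its close relative APG-1, was the most variable member counted in every library. It stood at 48.6, 32.6 and 47.6 CPM in insB:9-23 replicates 1 to 3, and at 31.99, 58.2 and 29.2 CPM in vehicle replicates 1 to 3. The coefficient of variation was 20.8% in the insB:9-23 group and 40.2% in the vehicle group, against at most 15.4% in either group for the other 7 members counted in every library. The log2 fold of Hspa4l was 0.11 ± 0.31 (SE; edgeR adjusted p = 0.97). Hsph1 (ENSMUSG00000029657) lies at chr5:149614287-149636376 and Hspa4 (ENSMUSG00000020361) at chr11:53259814-53300457, both on the minus strand, and Hspa4l (ENSMUSG00000025757) lies at chr3:40744495-40796103 on the plus strand.

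**Figure D3:**
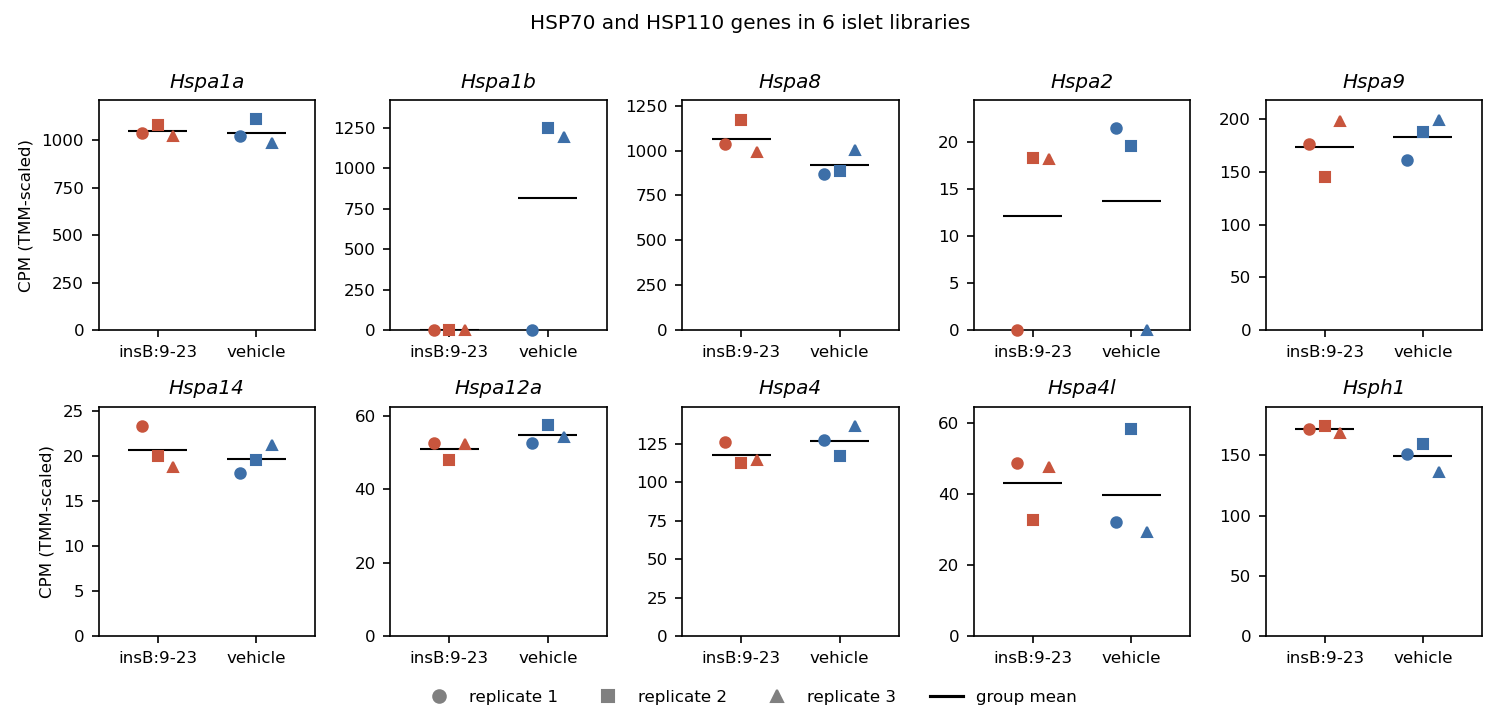
Level of each of the 10 members in CPM (1 panel each, axes from 0), with insB:9-23 libraries in red on the left, vehicle libraries in blue on the right, symbols by replicate number and a black line at the group mean. Hspa1b and Hspa2 have libraries at 0, and Hsph1 alone has groups that do not overlap.

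Over the family, 0 of 9 tested members passed the edgeR test, against 0.0823% of all 17016 genes. At an unadjusted p below 0.05 there was 1 member, Hsph1, against 5.55% of all genes (2.74% higher and 2.81% lower). DESeq2 and limma-voom also called 0 of 9, each with 1 member at an unadjusted p below 0.05. The log2 fold was above 0 for 5 members and below 0 for 4, with a median of 0.01, and over all genes 51.5% lay above 0 with a median of 0.009. With library totals alone as scaling, the median over all genes was -0.15. On that scale Hspa8 and Hsph1 kept log2 folds above 0 (0.07 and 0.05), and those of Hspa1a, Hspa4l and Hspa14 turned below 0 (-0.14, -0.061 and -0.064). Relative to the median of all genes these 5 lay above it under either scaling. A change of scaling moves the folds of all genes by nearly the same amount, so this is not a second result. In the main fit Hspa1a lay above the median by far less than its error, at 0.011 ± 0.07 (SE) against 0.009.

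**Figure D4:**
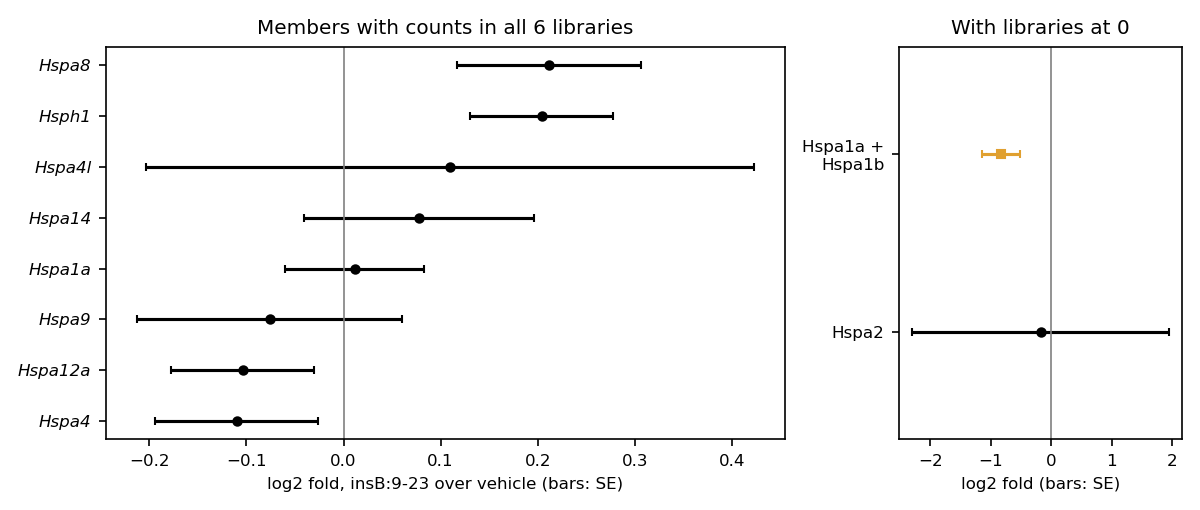
Log2 fold of insB:9-23 over vehicle with its standard error, for the 8 members with counts in all 6 libraries (left) and for Hspa2 and the sum of Hspa1a and Hspa1b (right, wider axis). Hspa8 (0.21) and Hsph1 (0.20) lie highest on the left, and the sum lies at -0.82 on the right.

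Levels of different members were compared per kilobase of merged exon length (RPKM, here CPM per kilobase). The median over the 6 libraries was 348 RPKM for Hspa1a, 232 for Hspa8, 42.2 for Hspa9, 22.6 for Hsph1 and 22.0 for Hspa4. The ranges of Hspa1a, Hspa8 and Hspa9 did not overlap with each other or with that of Hsph1, while those of Hsph1 and Hspa4 did. Below these came Hspa2 (6.91), Hspa12a (5.71), Hspa14 (4.88) and Hspa4l (3.403), whose ranges overlapped with the next in order. The place of Hspa2 rests on the median. Its mean, which includes its libraries at 0, was 4.90 RPKM, below the means of Hspa12a (5.74) and Hspa14 (4.98). Hspa1b had a median of 0 RPKM, and 447 and 426 RPKM in vehicle replicates 2 and 3, above every other member in those libraries. The order depends on the length used. By the longest protein-coding transcript, a choice made after the data were seen, Hspa8 averaged 414 RPKM over the 6 libraries, against 231 RPKM by merged exon length, and passed Hspa1a, at 352 RPKM by either length. Hsph1 averaged 42.2 RPKM by that transcript and 22.1 RPKM by merged exon length. Hspa14 averaged 11.3 RPKM by that transcript and 4.98 RPKM by merged exon length, and it passed Hspa12a, at 9.20 and 5.74 RPKM.

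Summed over the 10 members, the level was 693, 735 and 687 RPKM in insB:9-23 replicates 1 to 3, against 649, 1139 and 1094 RPKM in vehicle replicates 1 to 3. Without Hspa1b the vehicle sums were 649, 692 and 668 RPKM, so the step in the last 2 vehicle libraries was that of Hspa1b. Hspa1b made up 39.3% and 39.0% of the family level in those libraries. The zeros of Hspa1b and Hspa2 enter these sums and shares as counted, and they are not read as absence of the transcripts. The sums therefore compare what was counted, not how much transcript was present. Of the level without Hspa1b, Hspa1a took 49.6% to 54.3% and Hspa8 took 29.8% to 37.0% in any library. By the longest protein-coding transcript, Hspa1a took 36.4% to 41.3% and Hspa8 took 40.7% to 48.8%, and Hspa8 had the larger share in 5 of 6 libraries, with vehicle replicate 2 as the exception. Hspa1b then made up 32.96% and 32.01% of the family level in vehicle replicates 2 and 3.

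Ratios between paralogs within a library do not depend on scaling, but their size depends on the length used, here merged exon length. By the longest protein-coding transcript Hspa8 averaged 414 RPKM and Hspa1a 352 RPKM, and Hsph1 averaged 42.2 RPKM and Hspa4 26.5 RPKM. In counts per kilobase, Hspa8 over Hspa1a was 0.688, 0.745 and 0.666 in insB:9-23 replicates 1 to 3, and 0.587, 0.549 and 0.703 in vehicle replicates 1 to 3. Hsph1 over Hspa4 was 1.04, 1.18 and 1.12 in insB:9-23 replicates 1 to 3, and 0.904, 1.04 and 0.757 in vehicle replicates 1 to 3. The groups overlapped in the first ratio, and in the second insB:9-23 replicate 1 lay just below vehicle replicate 2. Hsph1 over Hspa8, the exchange factor over the chaperone it serves, averaged 0.0958 ± 0.0068 in the insB:9-23 group and 0.0966 ± 0.0142 in the vehicle group (SD, n = 3 each). Hspa4l over Hspa4 averaged 0.171 ± 0.031 and 0.151 ± 0.073 (insB:9-23 and vehicle). Exact two-sided permutation tests gave p = 0.3, 0.2, 1 and 0.6 for the 4 ratios in the order given (adjusted 0.6, 0.6, 1 and 0.8), and 0.1 is the smallest p of this design.

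**Figure D5:**
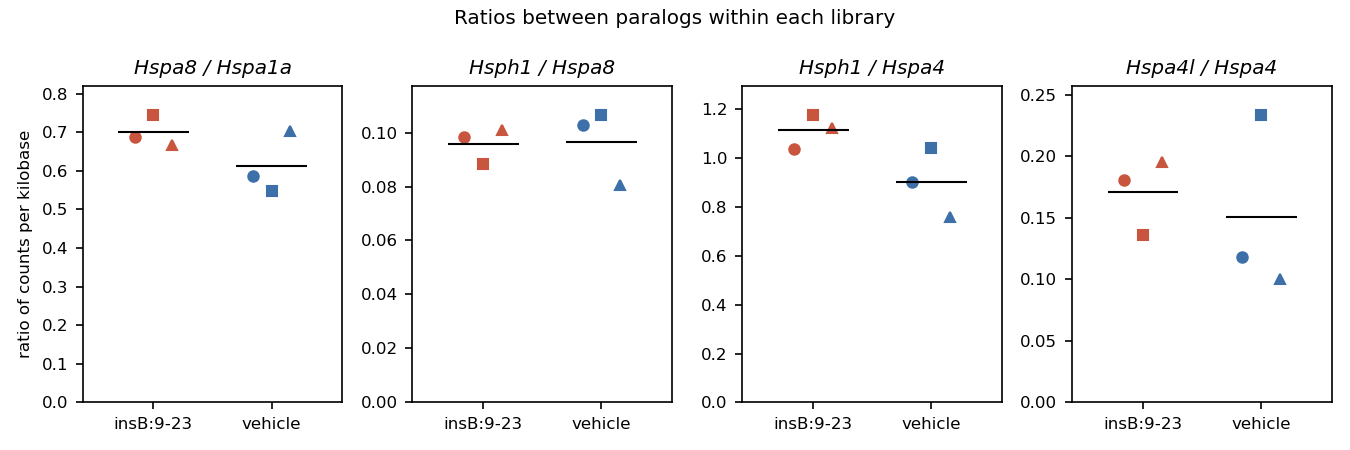
Ratios of counts per kilobase between paralogs within each library (axes from 0), with insB:9-23 libraries in red on the left, vehicle libraries in blue on the right, symbols by replicate number as circles, squares and triangles for 1, 2 and 3, and a black line at the group mean. The groups overlap in all 4 panels.

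The partners of HSP70 were read from 8 lists of 66 tested genes in all. None passed the edgeR test, against 0.0823% of all genes. At an unadjusted p below 0.05 there were 3 higher and 4 lower, against 2.74% and 2.81% of all genes. DESeq2 called 2 of the 66, against 0.686% of all genes with an adjusted p (116 of 16916), and limma-voom called 0, against 0.0999%. Both DESeq2 calls were genes named below, Bag1 (DESeq2 adjusted p = 0.023) and Dnajb6 (DESeq2 adjusted p = 0.043). In each list the 3 genes with the smallest p are named, a choice that favours groups without overlap. Over all genes tested, 13.5% had groups that do not overlap. Of 16 J-domain proteins listed as partners of cytosolic HSP70, 8 had a log2 fold above 0 and 8 below, with a median of -0.004. At an unadjusted p below 0.05, 2 were higher and 3 lower, and the 3 with the smallest p, named next, were the lower ones. Dnajb6, a suppressor of protein aggregation, was at 44.9, 44.2 and 46.9 CPM in insB:9-23 replicates 1 to 3, and at 53.9, 55.5 and 57.0 CPM in vehicle replicates 1 to 3. Its groups did not overlap, and its log2 fold was -0.29 ± 0.06 (SE; edgeR unadjusted p = 0.0042, adjusted p = 0.79). Dnajb2, which sorts clients to the proteasome, averaged 30.8 ± 2.42 CPM in the insB:9-23 group and 39.7 ± 0.832 CPM in the vehicle group (SD, n = 3 each; edgeR adjusted p = 0.81). Dnajb14, which is anchored in the endoplasmic reticulum membrane with its J domain facing the cytosol, averaged 61.4 ± 1.69 CPM in the insB:9-23 group and 74.6 ± 4.5 CPM in the vehicle group (SD, n = 3 each; edgeR adjusted p = 0.88).

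Among 9 nucleotide exchange factors and adaptors, 3 had a log2 fold above 0 and 6 below, with a median of -0.13. Bag1, an exchange factor with a BAG domain, was at 34.1, 32.4 and 38.7 CPM in insB:9-23 replicates 1 to 3, and at 25.9, 23.8 and 26.1 CPM in vehicle replicates 1 to 3. Each insB:9-23 library lay above each vehicle library, with a log2 fold of 0.47 ± 0.10 (SE; edgeR unadjusted p = 0.0028, adjusted p = 0.60). St13, the HSP70-interacting protein Hip, averaged 62.9 ± 8.32 CPM in the insB:9-23 group and 80.5 ± 7.51 CPM in the vehicle group (SD, n = 3 each; edgeR adjusted p = 0.88). Bag2, which inhibits the ubiquitin ligase CHIP, averaged 11.6 ± 1.44 and 14.7 ± 1.72 CPM in the insB:9-23 and vehicle groups (edgeR adjusted p = 0.88).

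The 9 genes of the HSP90 system had 2 log2 folds above 0 and 7 below, with a median of -0.13. Hsp90ab1, the constitutive HSP90, averaged 955 ± 14.2 CPM in the insB:9-23 group and 866 ± 33.9 CPM in the vehicle group, without overlap (SD, n = 3 each; edgeR adjusted p = 0.88). Cdc37 and Ahsa1, HSP90 cochaperones, had log2 folds of -0.23 ± 0.13 and -0.19 ± 0.12 (SE; edgeR adjusted p = 0.88 each). Of 8 subunits of the cytosolic chaperonin, 5 lay above 0 and 3 below (median 0.09). Among them Cct7 and Cct5 had log2 folds of 0.12 ± 0.06 and 0.09 ± 0.05, and Cct3 one of -0.14 ± 0.07 (SE; edgeR adjusted p = 0.88 each). Of 11 mitochondrial partners 4 lay above 0 and 7 below (median -0.04). Pam16, of the import motor, had a log2 fold of 0.32 ± 0.18, Dnajc19 one of -0.23 ± 0.15 and Hspd1, the mitochondrial chaperonin, one of 0.07 ± 0.06 (SE; edgeR adjusted p = 0.88, 0.88 and 0.90).

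The heat shock factors were low and level. Hsf1, the main activator of heat shock genes, averaged 20.6 ± 1.31 CPM in the insB:9-23 group and 21.6 ± 1.26 CPM in the vehicle group (SD, n = 3 each; edgeR adjusted p = 0.94). Hsf2 and Hsf4, 2 further factors, had log2 folds of 0.11 ± 0.14 and -0.05 ± 0.19 (SE; edgeR adjusted p = 0.93 and 0.98). The list of 3 had a median log2 fold of -0.05. Of 9 small heat shock proteins 5 were tested, with 2 above 0 and 3 below (median -0.09), and Hspb2, Hspb3, Hspb9 and Cryaa were under the filter. Hspb8, a partner of BAG3, averaged 8.44 ± 0.794 CPM in the insB:9-23 group and 7.56 ± 0.502 CPM in the vehicle group (SD, n = 3 each; edgeR adjusted p = 0.90). Cryab, alpha-B crystallin, and Hspb6 had log2 folds of 0.22 ± 0.29 and -0.09 ± 0.15 (SE; edgeR adjusted p = 0.93 and 0.95).

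Of the 5 HSP70 and HSP110 genes outside the 10 members, 2 had a log2 fold above 0 and 3 below, with a median of -0.01. Hyou1, the HSP110 of the endoplasmic reticulum, was at 472, 414 and 421 CPM in insB:9-23 replicates 1 to 3, and at 487, 481 and 500.5 CPM in vehicle replicates 1 to 3. Its groups did not overlap, and the log2 fold was -0.17 ± 0.07 (SE; edgeR unadjusted p = 0.052, adjusted p = 0.88), opposite in sign to that of Hsph1. Hspa13, a microsomal HSP70, was at 31.9, 37.2 and 30.6 CPM in insB:9-23 replicates 1 to 3, and at 156, 39.1 and 41.4 CPM in vehicle replicates 1 to 3. The groups did not overlap, but vehicle replicate 1 stood far above the other 5 libraries, and the log2 fold of -1.25 ± 0.58 (SE; edgeR adjusted p = 0.88) includes it. Hspa12b, the endothelial relative of Hspa12a, had a log2 fold of 0.30 ± 0.32 (SE; edgeR adjusted p = 0.92). Hspa1l lies 547 bases from Hspa1a on the other strand of chromosome 17, start to start. It stood at 5.53, 5.58 and 3.21 CPM in insB:9-23 replicates 1 to 3, and at 6.52, 4.74 and 3.19 CPM in vehicle replicates 1 to 3, so it had no step in the libraries with Hspa1b counts. It was named after its values were seen.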

How the data were processed

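Each library has its own deposited table of unnormalized counts, with Ensembl gene IDs, per the file headers. Tools named in the submitters' processing notes are HISAT, featureCounts 1.5.0-p3, DESeq 1.8.3 and the build GRCm38, with no role stated. Libraries were made with a stranded kit from KAPA, per the labels' protocols. How reads that map to more than 1 place were handled, which strand setting was used and which annotation release was counted are not stated in the sources used here.

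The members and gene lists were chosen with earlier results of these data known. Groups and replicate numbers came from sample titles. Symbols were found for 55154 of 55421 IDs in GENCODE M21, on the same build. The test was the robust quasi-likelihood F test of edgeR 4.0.16 (R 4.3.3), on the 17016 genes left by filterByExpr and with TMM scaling. Its p-values were adjusted by the Benjamini-Hochberg method across these genes, and 0.05 was the threshold. The standard error is the log2 fold divided by the root of F. RPKM values use the TMM-scaled library sizes and merged exon length. Single values were compared with exact permutation tests in SciPy 1.17.1, and the pair was aligned with Biopython 1.88. Nothing ties a library to separate animals, so the p-values reflect spread among libraries that may be technical. No library repeats another of its group: chi-square over degrees of freedom was 80.0 to 247 between them. The test was checked on simulated data. The text names all 10 members, 3 genes with the smallest p per list, and the 5 genes most like the summed pair. Alternatives were other scalings and filters, DESeq2 1.42.0, limma-voom (limma 3.58.1), the replicate number as a block, an acinar covariate and each library left out in turn.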

Additional observations from a re-analysis of the deposited data

How the results depend on the processing

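Under every alternative run, 0 of the members in the main test passed. The call count over members became 1 only without vehicle replicate 1, when Hspa1b passed, for a range of 0 to 1 with each library left out. Hspa1b also entered without each insB:9-23 library and with no filter, and did not pass (edgeR adjusted p = 0.77 to 0.94). The summed pair had log2 folds of -1.12 to -0.61 with each library left out, and -0.96 to -0.74 under the other alternatives, and passed only without vehicle replicate 1. The difference in Hspa1a share was 26.5 to 53.9 percentage points with each library left out and 43.2 with pooled counts. Over all genes, 14 passed, against 116 with DESeq2, 9 with the acinar covariate, 0 with the replicate number as a block, and 16 to 26 with each library left out (25 without insB:9-23 replicate 1, 26 without insB:9-23 replicate 3 and 23 without vehicle replicate 1). Of the list genes, DESeq2 called 2 (Bag1 and Dnajb6), against 0 in the main test. Signs turned for members near 0. By library totals alone, log2 folds were -0.14 for Hspa1a, -0.061 for Hspa4l and -0.064 for Hspa14, and with the acinar covariate -0.074 for Hspa4l. With each library left out they ran from -0.028 to 0.063 for Hspa1a, -0.76 to 0.41 for Hspa2, -0.071 to 0.49 for Hspa4l, -0.18 to 0.036 for Hspa9 and -0.013 to 0.15 for Hspa14. The cause of these changes was not tested. Folds of Hspa4, Hspa8, Hspa12a and Hsph1 kept their sign in all 15 alternatives each, which reuse the same libraries. By library totals alone Hspa8 and Hsph1 lay within their errors of 0, at 0.07 ± 0.18 and 0.05 ± 0.16 (SE). Hspa4 and Hspa12a were then at -0.26 ± 0.15 and -0.26 ± 0.14 (SE). Replicate numbers did not pair the libraries: same-numbered libraries had correlations of -0.035, -0.064 and -0.025 between their deviations from the group means, and none of the 3 insB:9-23 libraries correlated best with its own number. Under the replicate block the summed pair had a log2 fold of -0.74 (edgeR adjusted p = 0.93). Depth did not limit the abundant members, but 3 libraries per group did limit precision: no exact test of 1 value can go below 0.1.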

Other observations

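Genes outside the family were also counted in an all-or-none way. Those given here were chosen after their values were seen. Junb, an immediate-early transcription factor induced by many stresses, had 11674, 10380 and 7254 counts in insB:9-23 replicates 1 to 3, and 0, 9679 and 8096 counts in vehicle replicates 1 to 3. H1f0, a linker histone, had 0, 10354 and 8408 counts in insB:9-23 replicates 1 to 3, and 12374, 11620 and 0 counts in vehicle replicates 1 to 3, with zeros in the same 2 libraries as Hspa2. Pcbp1, an RNA-binding protein, had 8449, 0 and 6468 counts in insB:9-23 replicates 1 to 3 and 0 counts in each vehicle library. Its groups overlap at 0 through insB:9-23 replicate 2.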
